A study of Mus musculus with 18 samples.

Results

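The 50 genes described here code for the machinery that copies DNA in S phase and for the enzymes that supply its nucleotides. They were chosen by what their proteins do, though with earlier results of these data known. All 50 were present among the 15402 genes of the expression table and passed the filter on low values. They comprise the origin recognition complex (6 genes), licensing factors (3), the MCM helicase (6), helicase activation factors with Mcm8 (7), primase and polymerases (9), the sliding clamp with its loader and a clamp-binding factor (7), lagging strand and single-strand binding factors (5), deoxynucleotide supply (5) and the histone chaperone CAF-1 (2).

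Replication starts at origins, where the origin recognition complex, Cdc6 and Cdt1 load the ring of Mcm2 to Mcm7 in G1, and geminin (Gmnn) blocks Cdt1 later in the cycle so that an origin is not loaded again. On entry into S phase, Cdc45 and the GINS complex join the ring and turn it into the active helicase, and primase, the polymerases, the clamp PCNA, its RFC loader, flap endonuclease and ligase synthesise and seal the new strands. Resting T cells divide little, and activated T cells enter the cycle quickly, so these genes are widely used as markers of cycling T cells.

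RNA from 6 T-cell populations was sequenced 5 days after 3% oxazolone, a skin sensitiser, had been put on the abdominal skin of female Foxp3-Tocky mice of the strain labelled C57/BL6 Foxp3Timer Foxp3-IRES-GFP. All 6 populations came from the draining inguinal and axillary lymph nodes of sensitised mice, so no population came from an untreated animal. In these mice Foxp3 transcription drives a Timer protein that is blue when made and matures to red. CD4+ GFP- Timer- cells were sorted as CD44lo naïve cells (Tnaive) and CD44hi activated effector cells (Teff), and CD4+ Timer+ cells were sorted by blue and red fluorescence as Pers1, Pers2, PAt and Arrested. Pers1 and Pers2 are named in the study for persistent Foxp3 transcription, PAt for the locus between persistent and arrested, and Arrested for arrested transcription, whereas the sample labels name these 4 gates de novo, maturing, mature and decaying Foxp3 expressers. Each population had 3 replicate libraries, each from a pool of 3 mice. All 6 populations are described as coming from each mouse, so libraries of different populations may share a pool. The methods give 5 to 10 weeks as the age of mice sensitised in this way. In the text, persistent cells are Pers1 and Pers2 together.

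Values were log2 of normalised counts as the authors deposited them, and differences between populations are log2 fold changes from 1 limma fit over 18 libraries, with standard errors (SE). A gene was called where the Benjamini-Hochberg adjusted p was under 0.05 over the 13190 genes tested and the log2 fold change was over 1 in size. The depth of the libraries is unknown, as no read counts were analysed here, and the replicates alone set the precision. The labels held in the markers: Foxp3 was 14.36 to 14.85 in Timer+ libraries and 10.38 to 11.38 in Timer- libraries, and Cd44 was 9.47 to 9.72 in Tnaive and 13.04 to 13.05 in Teff. The summed level of 8 T-cell markers was 17.1 to 17.53 in all 18 libraries. Other markers differed between populations. The sums for dendritic cells (6 genes, 11.21 to 11.75), macrophages (5 of 6 genes listed, 9.87 to 10.24) and CD8 T cells (2 genes, from 11.51 up) were highest in Teff, against 6.8 to 7.34 (dendritic cells) and 6.34 to 8.37 (macrophages) elsewhere. The CD8 sum was 10.41 to 10.7 in PAt and Arrested, 10.31 to 10.61 in Tnaive and 9.65 to 10.18 in persistent libraries. The B-cell sum (7 genes) was 11.72 to 12.34 in Teff, 11.36 to 11.95 in PAt and Arrested, 10.62 to 10.9 in persistent and 9.66 to 10.07 in Tnaive libraries. The mean of Cd14 was under 3 in every population and those of Clec9a and Ncr1 in every population but Teff. The NK-cell sum (3 of 4 genes listed) was 8.94 to 9.41 in Timer- and 7.13 to 7.63 in Timer+ libraries. Its genes differed in their order. Eomes was highest in Tnaive, at 9.02 to 9.33, and was 7.76 to 7.98 in Teff. Klrb1c was 7.96 to 8.04 in Teff, 5.29 to 6.54 in Timer+ and 4.72 to 4.9 in Tnaive libraries. Ncr1 was highest in Teff (3.97 to 4.4).

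Persistent cells stood apart from every other population in these genes. For 42 of the 50 genes, each of the 6 persistent libraries lay above all 12 other libraries, which was so for 14.9% of all tested genes. Against PAt and Arrested cells, 33 of the 50 were called higher and 0 lower, where 4.74% of all tested genes were called higher and 2.77% lower. The median log2 fold change of the 50 genes was 1.32, from -0.12 to 3.59, and the median of all tested genes was -0.01. At an adjusted p under 0.05 alone, 47 of the 50 were higher and 0 lower, beside 35.9% and 35.1% of all tested genes. The remaining 3 were Orc3, Orc4 and Orc5. The B-cell and CD8 marker sums were lower in persistent than in PAt and Arrested libraries with no overlap, and their part in these differences was not tested. In bulk RNA, a larger share of cells in S phase and more of these mRNAs per cell cannot be told apart.

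**Figure D1:**
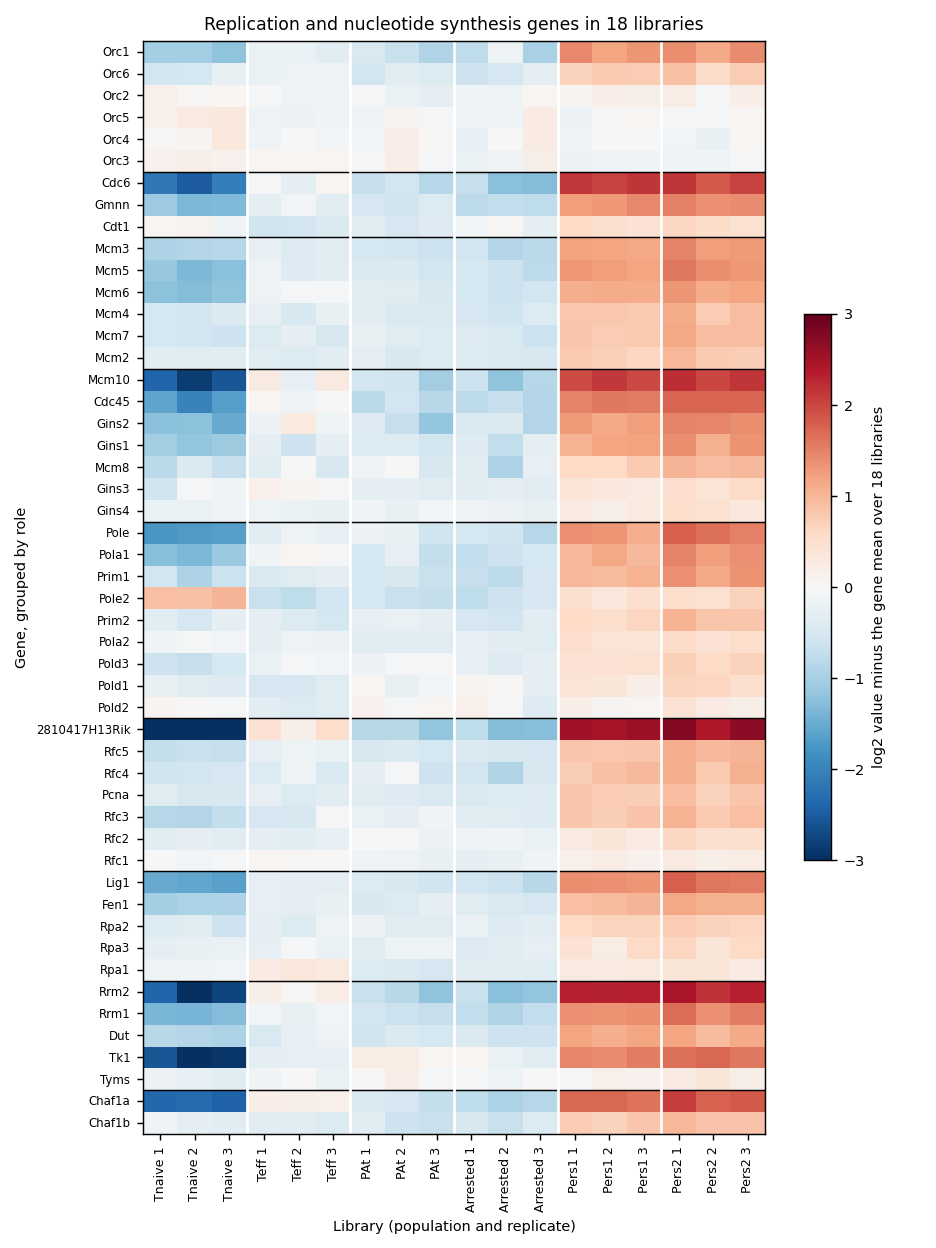
Each row is 1 of the 50 genes, grouped by role between the black lines, and each column 1 of 18 libraries. Colour is the log2 value minus the gene's own mean over the 18 libraries, cut off at 3 in either direction. The 6 persistent libraries on the right are red in nearly every row, the Tnaive libraries on the left are mostly blue, and Pole2 is the gene that is reddest in Tnaive.

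The promoters of several genes are shown because most of the 50 genes were higher in persistent cells, and many replication genes are known targets of the E2F transcription factors, which switch S phase genes on as cells leave G1. Windows from 250 bases before to 50 after the RefSeq gene start (GRCm38.p6) were searched on both strands for the E2F letters TTTCCCGC, TTTCGCGC, TTTGCCGC and TTTGGCGC, and 42 of the 50 genes had a window. Of these, 17 held at least 1 match (40.5%), against 4.63% of tested genes and 2.6% of all genes with a window. With the leading T of each dropped to leave 7 letters, which takes in every match of the 8 letters, 28 of 42 did (66.7%), against 19.1% of tested genes. CCAAT was found in 61.9% of the 42 and 42.7% of tested genes, and TTTGAA, the letters of the CHR element of mitotic genes, in 11.9% and 14.4%. A match is a description of letters, not of a bound site. Among the 42, the median log2 fold change between persistent and PAt and Arrested cells was 1.31 with an 8-letter E2F match and 1.2 without one. Below are the last 150 bases before the start and the 30 after it, with the E2F matches in capitals, for the 4 genes with the largest log2 fold changes between these cells and for Orc4 and Orc3, which did not pass the test.
2810417H13Rik (chr9:65890173-65890352, plus strand): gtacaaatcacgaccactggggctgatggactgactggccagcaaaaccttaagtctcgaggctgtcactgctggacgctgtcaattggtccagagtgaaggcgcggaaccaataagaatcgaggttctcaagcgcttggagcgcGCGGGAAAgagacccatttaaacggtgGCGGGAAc
Rrm2 (chr12:24708104-24708283, plus strand): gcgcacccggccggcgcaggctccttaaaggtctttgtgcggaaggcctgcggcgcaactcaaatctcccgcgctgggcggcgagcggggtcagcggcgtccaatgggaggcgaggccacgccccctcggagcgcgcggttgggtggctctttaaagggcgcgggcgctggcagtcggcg
Cdc6 (chr11:98908001-98908180, plus strand): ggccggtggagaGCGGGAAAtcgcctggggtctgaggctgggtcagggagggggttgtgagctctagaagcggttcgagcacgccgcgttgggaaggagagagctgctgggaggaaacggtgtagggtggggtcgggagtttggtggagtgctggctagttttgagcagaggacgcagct
Mcm10 (chr2:5012762-5012941, minus strand): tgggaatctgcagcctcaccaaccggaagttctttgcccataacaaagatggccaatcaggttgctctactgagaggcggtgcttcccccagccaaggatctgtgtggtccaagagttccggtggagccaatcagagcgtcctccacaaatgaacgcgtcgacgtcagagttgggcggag
Orc4 (1 of its windows; chr2:48950052-48950231, minus strand): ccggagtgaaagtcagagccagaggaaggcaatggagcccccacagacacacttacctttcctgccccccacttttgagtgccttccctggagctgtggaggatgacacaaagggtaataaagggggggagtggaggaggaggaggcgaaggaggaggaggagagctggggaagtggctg
Orc3 (chr4:34614913-34615092, minus strand): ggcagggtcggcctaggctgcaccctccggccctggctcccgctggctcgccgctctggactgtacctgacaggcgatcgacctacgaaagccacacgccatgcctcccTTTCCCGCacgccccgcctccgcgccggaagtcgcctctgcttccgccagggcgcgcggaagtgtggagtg
2810417H13Rik held the 8 letters across its start and the 7 letters again from base 23, and Cdc6 held the 8 letters from base -138, counted from the start. Orc3, which was not higher in persistent cells, held TTTCCCGC from base -41. Orc4, which was not higher either, held the 7 letters from base -140 in another of its windows, which is not printed. Rrm2 and Mcm10, among the genes with the largest differences, had no 8-letter match in their windows, and the 7 letters matched in Rrm2 only at base -235, outside the stretch printed, and nowhere in Mcm10.

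Of the origin recognition complex, the subunits that mark origins, Orc1 and Orc6 were called higher in persistent than in PAt and Arrested cells, and Orc2 to Orc5 were not. Orc1, the largest subunit, was 8.37, 8.12 and 8.25 in the Pers1 libraries, 8.32, 8.06 and 8.34 in those of Pers2, 6.48, 6.26 and 6.03 in PAt and 6.18, 6.79 and 5.97 in Arrested. All persistent libraries lay above the others, with a log2 fold change of 1.96 ± 0.11 (SE, 6 libraries against 6, limma adjusted p = 2.9e-12). Orc3 was the smallest of the group, with 11.29 to 11.44 in persistent and 11.27 to 11.66 in PAt and Arrested libraries, and these overlapped (-0.12 ± 0.053, limma adjusted p = 0.0507). Orc6 was 1.2 ± 0.074 and Orc2 0.26 ± 0.058 on the log2 scale. Per kilobase of its longest coding transcript, Orc1 was also the lowest of the 6 subunits, at a log2 level of 6.65 ± 0.16 (SD, n = 3) in Pers2 and 4.25 ± 0.11 in Tnaive, where Orc3 was 10.18 ± 0.057 and 10.41 ± 0.025.

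Cdc6 and geminin were strongly higher in persistent cells, and Cdt1 less so. Cdc6, the ATPase that helps load the MCM ring, was 10.06 to 10.37 in the 6 persistent libraries and 6.91 to 7.64 in PAt and Arrested libraries, with 7.93 to 8.27 in Teff and 5.72 to 6.17 in Tnaive. None of these 4 ranges overlapped, and the log2 fold change to PAt and Arrested cells was 2.94 ± 0.11, a 7.69-fold difference (limma adjusted p = 1.0e-15). Cdt1, the loader, and Gmnn, the inhibitor that binds it, differed in their order over the populations. Cdt1 was 11.28, 11.15 and 11.11 in the Pers1 libraries, 11.3, 11.23 and 11.13 in those of Pers2, 10.3, 10.16 and 10.29 in PAt, 10.59, 10.71 and 10.41 in Arrested, 10.08, 10.1 and 10.25 in Teff and 10.74, 10.77 and 10.54 in Tnaive. Its Tnaive libraries thus lay above all Teff and PAt libraries and overlapped Arrested, and its difference between persistent and PAt and Arrested cells, 0.79 ± 0.057, was under the fold threshold. Gmnn was 10.09, 10.14 and 10.28 in the Pers1 libraries, 10.35, 10.21 and 10.25 in those of Pers2, 8.33, 8.25 and 8.43 in PAt, 8.06, 8.1 and 8.08 in Arrested, 8.55, 8.75 and 8.52 in Teff and 7.74, 7.49 and 7.52 in Tnaive. Its persistent libraries were the highest and its Tnaive libraries the lowest with no overlap, and its log2 fold change to PAt and Arrested cells was 2.01 ± 0.065 (limma adjusted p = 2.2e-16).

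All 6 subunits of the MCM ring were called higher in persistent than in PAt and Arrested cells. Mcm2 was 12.68, 12.61 and 12.54 in Pers1 and 12.89, 12.69 and 12.63 in Pers2, against 11.41 to 11.64 in PAt and Arrested libraries, 11.48 to 11.57 in Teff and 11.55 to 11.59 in Tnaive. Outside the persistent libraries, Mcm2 thus varied little. Mcm6 was 13.62 to 13.86 in persistent, 11.88 to 12.19 in PAt and Arrested, 12.38 to 12.5 in Teff and 11.22 to 11.31 in Tnaive libraries, in 4 steps with no overlap. The log2 fold change between persistent and PAt and Arrested cells was 1.19 ± 0.045 for Mcm2, 1.92 ± 0.05 for Mcm3, 1.32 ± 0.055 for Mcm4, 1.9 ± 0.055 for Mcm5, 1.64 ± 0.04 for Mcm6 and 1.31 ± 0.051 for Mcm7. The largest limma adjusted p of these was 1.2e-14, for Mcm4. The proteins form a ring with 1 copy of each, and per kilobase of transcript their log2 levels in Pers2 ran from 10.98 ± 0.13 (SD, n = 3) for Mcm2 to 11.61 ± 0.12 for Mcm6, whereas in Tnaive they ran from 8.79 ± 0.096 for Mcm5 to 9.85 ± 0.079 for Mcm4.

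Among the factors that activate the helicase, 5 of 7 genes were called higher in persistent cells. Mcm10, needed to start unwinding, was 9.91, 10.07 and 9.93 in the Pers1 libraries, 10.18, 9.95 and 10.11 in those of Pers2, 7.4, 7.36 and 6.92 in PAt and 7.32, 6.75 and 7.1 in Arrested. The 2 sets were far apart, with a log2 fold change of 2.88 ± 0.12 (7.36-fold, limma adjusted p = 6.5e-15), and Tnaive was lower again at 5.11 to 5.57. Cdc45, which joins the ring with GINS, was 2.41 ± 0.076 higher. The 4 GINS subunits, which work as 1 complex, differed among themselves: Gins2 was 2.0 ± 0.12 and Gins1 1.66 ± 0.093 higher on the log2 scale, and Gins3 (0.72 ± 0.082) and Gins4 (0.49 ± 0.051) were under the fold threshold. Gins4, the smallest of the group, was 9.81 to 10.16 in persistent and 9.41 to 9.56 in PAt and Arrested libraries without overlap. Mcm8, a helicase better known from recombination, was 1.16 ± 0.12 higher.

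For primase and the polymerases, 5 of 9 genes were called higher, among them both subunits of primase. Pole, the catalytic subunit of the leading strand polymerase epsilon, was 11.34, 11.3 and 11.07 in the Pers1 libraries, 11.77, 11.62 and 11.49 in those of Pers2 and 9.12 to 9.8 in PAt and Arrested libraries, with a log2 fold change of 1.96 ± 0.077 (limma adjusted p = 4.3e-15). Pola1 (1.77 ± 0.072), Prim1 (1.75 ± 0.068), Pole2 (1.13 ± 0.063) and Prim2 (1.1 ± 0.064) were the others. Polymerase delta, which makes the lagging strand, was not called in any of its 3 subunits listed, with 0.75 ± 0.045 for Pold3, 0.53 ± 0.062 for Pold1 and 0.22 ± 0.071 for Pold2. Pold2 was 10.31 to 10.7 in persistent and 9.87 to 10.42 in PAt and Arrested libraries, and these overlapped (limma adjusted p = 0.00985). Pola2, the regulatory subunit of polymerase alpha, was 0.8 ± 0.04.

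Around the sliding clamp, 5 of 7 genes were called higher. 2810417H13Rik, also named Pclaf, which codes for a small PCNA-binding protein, had the largest difference of the 50 genes. It was 12.36, 12.31 and 12.41 in the Pers1 libraries, 12.6, 12.25 and 12.53 in those of Pers2, 9.02, 9.02 and 8.66 in PAt, 9.09, 8.55 and 8.57 in Arrested, 10.27, 10.02 and 10.38 in Teff and 6.29, 6.41 and 6.41 in Tnaive. The persistent, Teff, PAt with Arrested, and Tnaive libraries made 4 steps with no overlap, and the log2 fold change of persistent to PAt and Arrested cells was 3.59 ± 0.092, or 12.06-fold (limma adjusted p = 7.8e-18). Pcna, the clamp itself, was 13.57, 13.5 and 13.48 in Pers1 and 13.68, 13.44 and 13.57 in Pers2, against 12.26 to 12.49 in all 12 other libraries. Its values in the other 4 populations overlapped one another, and its log2 fold change was 1.2 ± 0.041. Of the clamp loader, Rfc5 (1.41 ± 0.045), Rfc4 (1.4 ± 0.1) and Rfc3 (1.14 ± 0.076) were called, and Rfc2 (0.53 ± 0.04) and the large subunit Rfc1 (0.38 ± 0.037) were not.

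Of the lagging strand and single-strand binding genes, Lig1, the ligase that seals Okazaki fragments, and Fen1, which trims their flaps, were called, and the 3 subunits of the single-strand binding protein RPA were not. Lig1 was 12.25 to 12.71 in persistent and 10.1 to 10.52 in PAt and Arrested libraries (2.09 ± 0.05, limma adjusted p = 3.5e-18). Fen1 was 1.44 ± 0.047. Rpa2 was just under the threshold at 0.98 ± 0.057, Rpa3 was 0.74 ± 0.072 and Rpa1 0.68 ± 0.031. Without PAt replicate 1, or without Arrested replicate 1, Rpa2 reached 1.01 and passed it.

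In nucleotide supply, 4 of 5 genes were called higher. Rrm1 and Rrm2 code for the large and small subunits of ribonucleotide reductase, which makes deoxynucleotides. Rrm2 was 12.54, 12.5 and 12.53 in the Pers1 libraries, 12.64, 12.36 and 12.54 in those of Pers2, 9.52, 9.36 and 8.99 in PAt, 9.54, 8.95 and 9.01 in Arrested, 10.38, 10.23 and 10.41 in Teff and 7.79, 6.81 and 7.45 in Tnaive. Rrm1 was 12.73 to 13.05 in persistent, 10.49 to 10.81 in PAt and Arrested, 11.16 to 11.31 in Teff and 9.99 to 10.07 in Tnaive libraries. Both genes fell into the same 4 steps with no overlap, with log2 fold changes of 3.29 ± 0.13 for Rrm2 (9.76-fold, limma adjusted p = 3.7e-15) and 2.16 ± 0.048 for Rrm1 (4.48-fold, limma adjusted p = 1.1e-18). Dut, the enzyme that clears dUTP, was 1.66 ± 0.058 and Tk1, the thymidine salvage kinase, 1.56 ± 0.081. Tyms, thymidylate synthase, which makes thymidylate by the other route, differed least. It was 12.2 to 12.55 in persistent and 12.04 to 12.4 in PAt and Arrested libraries, with overlap, and its log2 fold change was 0.18 ± 0.049 (limma adjusted p = 0.00266).

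CAF-1, which places histones on newly made DNA, was higher in both subunits listed. Chaf1a was 10.82 to 11.28 in persistent and 8.25 to 8.76 in PAt and Arrested libraries (2.5 ± 0.065, limma adjusted p = 7.8e-18). Chaf1b was 10.55 to 10.84 and 9.17 to 9.53 (1.36 ± 0.065, limma adjusted p = 1.1e-13). For both genes every persistent library lay above every PAt and Arrested library.

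**Figure D2:**
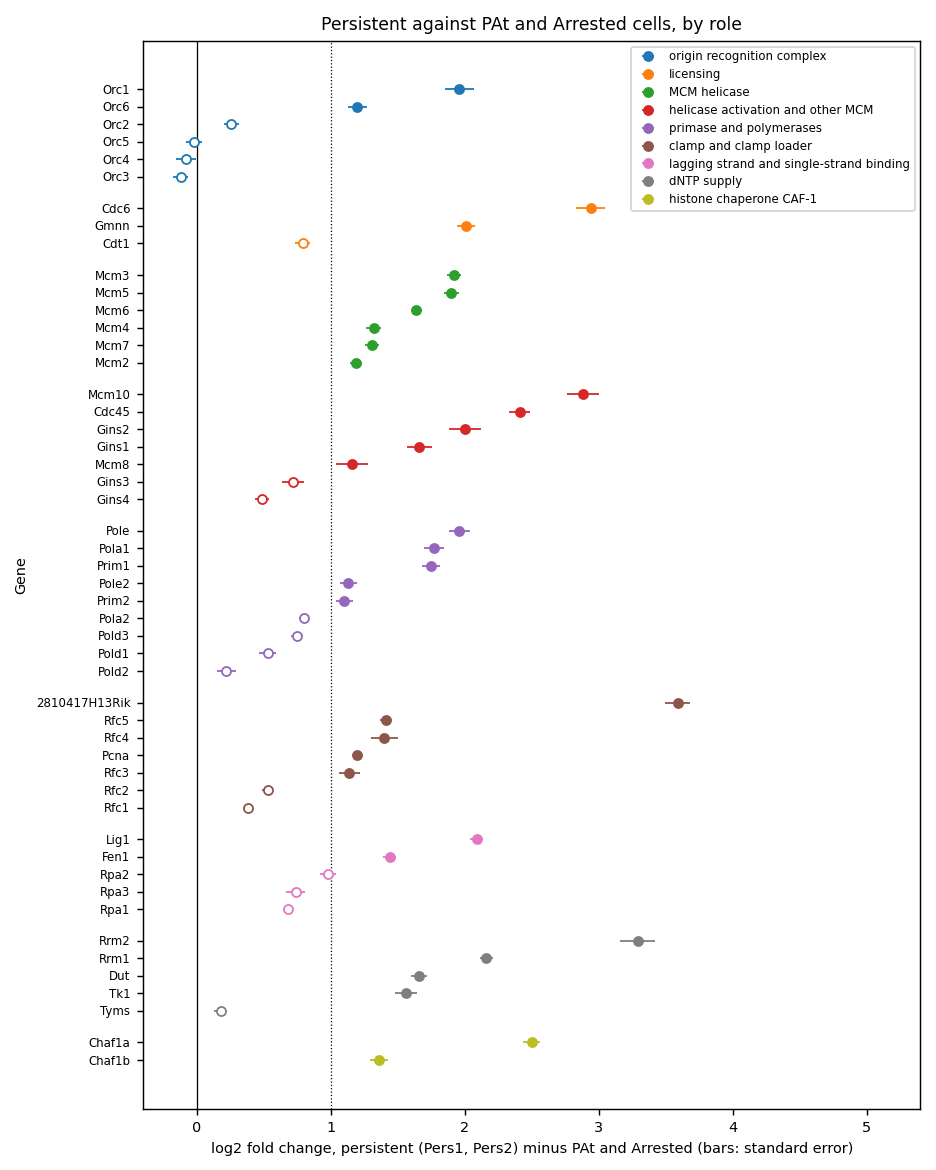
Points are the log2 fold changes of the 50 genes between the 6 persistent and the 6 PAt and Arrested libraries, with bars of 1 standard error and colours for the role groups. Filled points were called, open points were not, and the dotted line is the fold threshold of 1. All 6 MCM subunits lie to the right of the line, and Orc2 to Orc5 lie near 0.

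Between Teff and Tnaive, the Timer- pair, fewer of these genes differed. Of the 50, 14 were called higher and 1 lower, beside 8.88% and 2.28% of all tested genes, and the median log2 fold change was 0.36 (-1.6 to 3.85), or 0.19 after quantile normalisation. By the adjusted p alone, 29 were higher and 5 lower (31.3% and 27.7% of all tested genes). The genes called higher were 2810417H13Rik (3.85 ± 0.13), Rrm2 (2.99 ± 0.18), Mcm10 (2.69 ± 0.16), Tk1 (2.61 ± 0.12), Chaf1a (2.54 ± 0.091), Cdc6 (2.14 ± 0.15), Cdc45, Pole, Gins2, Lig1, Rrm1, Pola1, Mcm6 and Gmnn. Of the MCM ring, Mcm6 alone was called (1.17 ± 0.056), and the others ran from -0.05 ± 0.064 for Mcm2 to 0.95 ± 0.078 for Mcm5. Gmnn was at the edge, with 1.03 ± 0.092, and was under the fold threshold without Teff replicate 2 (0.96), Tnaive replicate 2 (0.98) or Tnaive replicate 3 (0.99), with median centring (0.94) and with quantile normalisation (0.73), which also left Gins2 uncalled (0.91). Teff libraries had higher dendritic cell, macrophage, B-cell and CD8 marker sums than Tnaive libraries, as given above. Of the NK-cell markers, Klrb1c and Ncr1 were higher in Teff and Eomes was lower. The part of such cells in these differences was not tested.

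Pole2, the accessory subunit of polymerase epsilon, was the gene that was lower. It was 10.13, 10.1 and 10.24 in Tnaive, 8.56, 8.46 and 8.64 in Teff, 8.7, 8.56 and 8.5 in PAt, 8.46, 8.61 and 8.71 in Arrested, 9.7, 9.57 and 9.7 in Pers1 and 9.75, 9.67 and 9.9 in Pers2. Tnaive libraries were thus the highest, persistent libraries came next, and Teff, PAt and Arrested libraries overlapped at the bottom. The log2 fold change of Teff to Tnaive was -1.6 ± 0.089 (limma adjusted p = 1.7e-12). Pole, its catalytic partner, went the other way in the same comparison, with 9.66 to 9.81 in Teff and 8.23 to 8.32 in Tnaive (1.47 ± 0.11, limma adjusted p = 1.8e-10). A second annotated gene model, Gm49384, shares 249 bases of the Pole2 transcript at 99.6% identity, so reads from it could count for Pole2.

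Persistent cells also exceeded both Timer- populations. Against Teff, 33 of the 50 genes were called higher and 0 lower (4.28% and 4.03% of all tested genes), with a median log2 fold change of 1.18, and at an adjusted p under 0.05 alone 46 were higher and Orc3 was lower (29.8% and 28.9% of all tested genes). Against Tnaive, 34 were called higher and 0 lower (10.6% and 4.78% of all tested genes), with a median of 1.46, and at an adjusted p under 0.05 alone 44 were higher and 4, namely Pole2, Orc3, Orc4 and Orc5, were lower (38.5% and 35.5% of all tested genes). The largest differences from Tnaive were 6.04 ± 0.11 for 2810417H13Rik, 5.17 ± 0.16 for Rrm2, 4.67 ± 0.14 for Mcm10, 4.42 ± 0.1 for Tk1 and 4.28 ± 0.13 for Cdc6. The lowest was Pole2 (-0.44 ± 0.077). These comparisons share the persistent libraries with the one above and are given as values side by side. Persistent libraries had lower dendritic cell, macrophage, B-cell and CD8 marker sums than Teff, lower CD8 and higher B-cell and macrophage sums than Tnaive, and lower NK-cell sums than both (7.13 to 7.47 against 8.94 to 9.41), and the part of such cells was not tested. Rpa1, the large subunit of RPA, was at 0.01 ± 0.038 against Teff (limma adjusted p = 0.896), with 13.1 to 13.21 in persistent and 13.08 to 13.19 in Teff libraries, against 12.35 to 12.53 in PAt and Arrested.

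PAt and Arrested cells lay below Teff cells in part of these genes, mostly by less than the fold threshold. The 50 genes had a median log2 fold change of -0.15 to Teff, and 0 were called higher and 2 lower, beside 2.84% and 4.04% of all tested genes. These were 2810417H13Rik (-1.41 ± 0.11, limma adjusted p = 1.0e-09) and Rrm2 (-1.11 ± 0.16, limma adjusted p = 4.1e-06). At an adjusted p under 0.05 alone, 25 were lower and 5 higher (27.9% and 24.8% of all tested genes). In the order of single libraries, Teff lay wholly above PAt and Arrested for 20 genes, wholly below for Pold1 and Rfc2, and overlapped them for 28, where 22.3% of all tested genes had Teff wholly above and 18.7% wholly below. The markers of cells other than CD4 T cells that were higher in Teff than in PAt and Arrested libraries bear on this comparison too. They were those of dendritic cells, macrophages, CD8 T cells and NK cells, and their part was not tested.

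Against Tnaive, PAt and Arrested cells had 7 genes called higher and 1 lower (6.63% and 1.27% of all tested genes), and a median log2 fold change of 0.22. At an adjusted p under 0.05 alone, 27 were higher and 8 lower (26.9% and 23.8% of all tested genes). Tk1 was the largest of the 7. It was 9.64, 9.64 and 9.46 in PAt, 9.47, 9.21 and 9.04 in Arrested, 9.15, 9.17 and 9.16 in Teff, 6.85, 6.3 and 6.5 in Tnaive and 10.83 to 11.13 in persistent libraries. PAt libraries thus lay above Teff, Arrested libraries spanned it, and both were far above Tnaive, with a log2 fold change to Tnaive of 2.86 ± 0.1 (limma adjusted p = 6.6e-16). The others were 2810417H13Rik (2.45 ± 0.11), Rrm2 (1.88 ± 0.16), Mcm10 (1.79 ± 0.14), Chaf1a (1.65 ± 0.079), Cdc6 (1.34 ± 0.13) and Pole (1.2 ± 0.094), of which Cdc6 was not called after quantile normalisation (0.95). Pole2 was the gene called lower (-1.57 ± 0.077). PAt and Arrested libraries had higher B-cell and macrophage sums than Tnaive libraries and lower NK-cell sums (7.38 to 7.63 against 9.11 to 9.41), and the part of such cells was not tested.

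**Figure D3:**
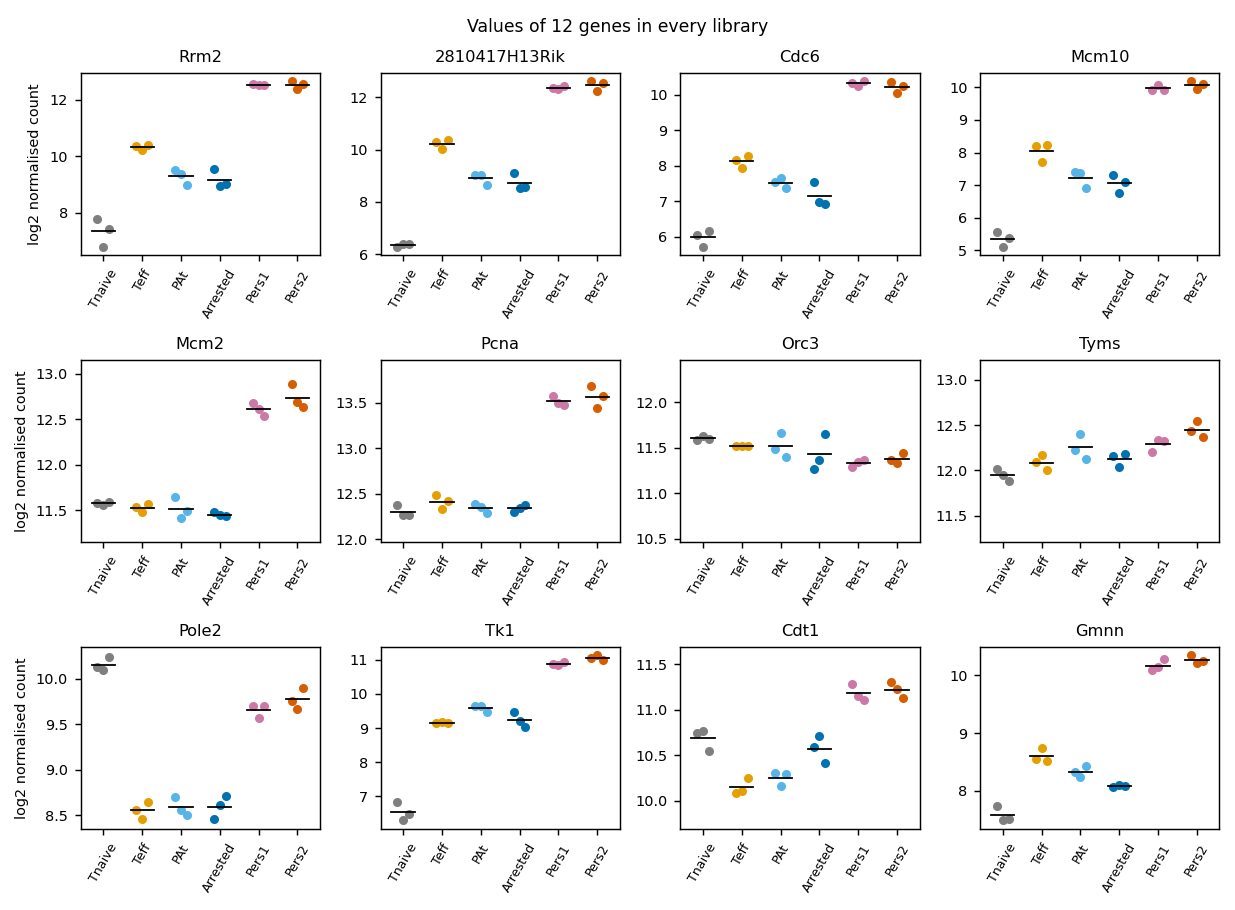
Log2 normalised counts of 12 genes in every library, 3 points for each population and a line at their mean, with a different vertical range in each panel. Rrm2, 2810417H13Rik, Cdc6 and Mcm10 fall into steps from Tnaive to persistent cells, Mcm2 and Pcna are high in Pers1 and Pers2 and level elsewhere, and Pole2 is highest in Tnaive.

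Within the pairs of Timer+ gates the differences were small. Between Pers2 and Pers1, 0 of the 50 genes were called in either direction by limma (0.144% of all tested genes were called higher and 0.0455% lower), and the median log2 fold change was 0.13 (-0.1 to 0.39). The median over the 50 genes of the difference from each gene's mean was 0.82, 0.77 and 0.81 in the Pers1 libraries and 1.07, 0.85 and 0.93 in the Pers2 libraries. At an unadjusted p under 0.05, 16 genes were higher in Pers2 and 0 lower (12.8% and 11.2% of all tested genes). At an adjusted p under 0.05 alone, 6 were higher and 0 lower (6.02% and 4.56% of all tested genes). Those 6 were Pole (0.39 ± 0.11), Pola1 (0.33 ± 0.1), Prim2 (0.33 ± 0.091), Lig1 (0.27 ± 0.071), Rfc2 (0.23 ± 0.057) and Pold3 (0.22 ± 0.063). Between Arrested and PAt, 0 were called by limma (0.0455% of all tested genes were called higher and 0.0758% lower) with a median of -0.09 (-0.37 to 0.32). At an unadjusted p under 0.05, 2 were higher and 14 lower in Arrested (7.92% and 10.2% of all tested genes). Cdt1 alone passed the adjusted p, 0.32 ± 0.081 higher in Arrested (limma adjusted p = 0.0237), beside 2.07% of all tested genes higher and 2.97% lower at this rule.

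Over all 18 libraries, 14 of the 50 genes made 4 separate steps, with persistent libraries above Teff, Teff above PAt and Arrested, and these above Tnaive, against 2.77% of all tested genes. They were Cdc6, Gmnn, Mcm5, Mcm6, Cdc45, Gins2, Mcm10, Pola1, Rfc5, 2810417H13Rik, Lig1, Rrm1, Rrm2 and Chaf1a. The 8 genes whose persistent libraries did not all lie above the other 12 were Orc2, Orc3, Orc4, Orc5, Pold2, Pole2, Rpa1 and Tyms. As a description of likeness, the correlation (Pearson's r, 18 libraries, which fall into 6 populations) of each gene with the mean of Mcm2 to Mcm7 was highest for Rfc5 (0.994) among the genes outside that mean and lowest for Orc3 (-0.646), with 0.374 for Pole2. Among all other tested genes, the 8 most like that mean were Stmn1 (0.991), Arhgap33 (0.99), Ndc80 (0.989), Mybl2 (0.989), Sdhd (0.988), Ran (0.987), Eme1 (0.986) and Rbbp4 (0.986).

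The difference between persistent and PAt and Arrested cells was then set against the difference between Teff and Tnaive, 2 contrasts with no library in common. The difference of these log2 fold changes was called positive for 13 of the 50 genes and negative for 1, beside 1.52% and 6.9% of all tested genes, with a median of 0.71. After quantile normalisation these counts were 20 and 0, Tk1 was no longer called (-0.76), and the calls over all tested genes went from 200 positive and 910 negative to 410 and 750. By the adjusted p alone, 42 were positive and 1 was negative (23.2% and 25.5% of all tested genes). A positive value says that the signed log2 fold change was higher among Timer+ cells. Pole2 was the largest (2.73 ± 0.11, limma adjusted p = 2.2e-14), with log2 fold changes of opposite sign, 1.13 in Timer+ and -1.6 in Timer- cells. The others were Chaf1b (1.47 ± 0.11), Prim1 (1.38 ± 0.12), Mcm3 (1.36 ± 0.087), Cdt1 (1.33 ± 0.1), Mcm2 (1.24 ± 0.078), Rfc4 (1.19 ± 0.17), Prim2 (1.14 ± 0.11), Mcm4 (1.13 ± 0.1), Mcm7 (1.13 ± 0.089), Orc1 (1.11 ± 0.2), Pcna (1.09 ± 0.071) and Dut (1.05 ± 0.1). Several of these, among them Mcm2, Pcna, Prim2 and Chaf1b, had a log2 fold change near 0 between Teff and Tnaive (-0.05, 0.11, -0.04 and -0.11). Tk1 was the gene with the opposite sign (-1.05 ± 0.14, limma adjusted p = 2.7e-06), with 1.56 in Timer+ and 2.61 in Timer- cells. It was at -1.0 and -0.93 without Arrested replicate 1 or Tnaive replicate 2 and then not called, and Dut was at 0.97 without Teff replicate 1. For the 3 genes with the largest difference between persistent and PAt and Arrested cells, the value was -0.26 ± 0.16 (2810417H13Rik), 0.3 ± 0.22 (Rrm2) and 0.81 ± 0.18 (Cdc6).

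**Figure D4:**
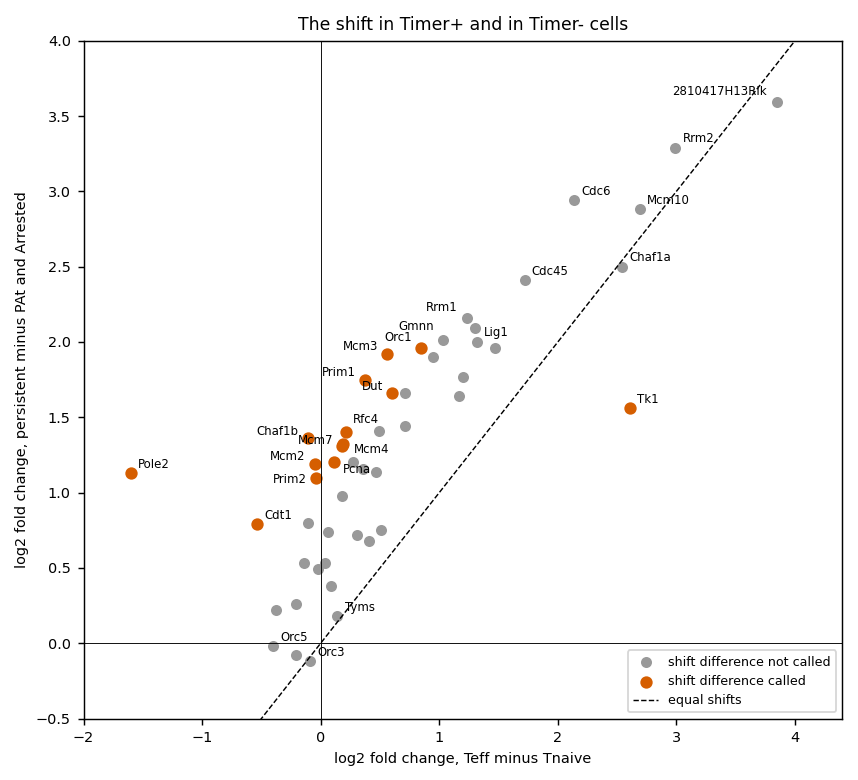
Each point is 1 of the 50 genes, with its log2 fold change from Tnaive to Teff on the horizontal axis and from PAt and Arrested to persistent cells on the vertical axis. Orange points had a called difference between these values, 13 above the dashed line of equality and Tk1 below it, and Pole2 lies far to the left.

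The rest of the pathway was less uniform. Of 32 other replication factors, 16 were called higher in persistent than in PAt and Arrested cells and 0 lower (4.74% and 2.77% of all tested genes). Their median log2 fold change was 1.03. The largest were Top2a, the topoisomerase that unlinks sister DNA (2.76 ± 0.073), Uhrf1, which reads hemimethylated DNA behind the fork (2.71 ± 0.074), and Asf1b, a histone chaperone that hands histones to CAF-1 (2.69 ± 0.088). The smallest were Rnaseh2a (-0.06 ± 0.052), Mcm9 (-0.03 ± 0.056) and Rnaseh2c (listed at 0.0 ± 0.086). Paralogs stood apart here as well, with Top2b at 0.02 ± 0.05 and Asf1a at 0.03 ± 0.082.

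Of 12 other enzymes that act on deoxynucleotides and thymidylate, Dck, the deoxycytidine salvage kinase (1.27 ± 0.051), was called higher, and 0 were called lower. The share called higher was 8.33%, near the 4.74% of all tested genes, of which 2.77% were called lower. Tk2 (-0.92 ± 0.044) and Dguok (-0.55 ± 0.054), salvage kinases of mitochondria, and Rrm2b, the ribonucleotide reductase subunit used outside S phase (-0.43 ± 0.061), had negative values under the fold threshold. Their persistent libraries lay below all PAt and Arrested libraries, which was so for 21.8% of all tested genes. After Dck the highest values were those of Shmt1 (0.64 ± 0.059) and Nme1 (0.64 ± 0.039).

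No gene of the pathways that make nucleotides from scratch was called in this comparison. Only 4.74% of all tested genes were called higher in it and 2.77% lower. Of 12 genes of purine synthesis 0 were called, with a median of 0.08, the highest values for Paics (0.64 ± 0.04), Gmps (0.6 ± 0.051) and Ppat (0.43 ± 0.062) and the lowest for Impdh1 (-0.71 ± 0.061), Prps1 (-0.02 ± 0.054) and Gart (-0.01 ± 0.036). Of 6 genes of pyrimidine synthesis 0 were called, with a median of 0.24, the highest values for Umps (0.79 ± 0.055), Cmpk1 (0.75 ± 0.053) and Ctps (0.37 ± 0.058) and the lowest for Dhodh (-0.25 ± 0.057), Ctps2 (0.05 ± 0.051) and Cad (0.12 ± 0.054). At an adjusted p under 0.05 alone by limma, 6 of the 12 purine and 3 of the 6 pyrimidine genes were higher and 1 of each lower, and at an unadjusted p under 0.05 these were 6 and 4 higher and 1 of each lower. Of all tested genes, 35.9% were higher and 35.1% lower at the adjusted p alone, and 36.8% and 36.2% at the unadjusted p.

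**Figure D5:**
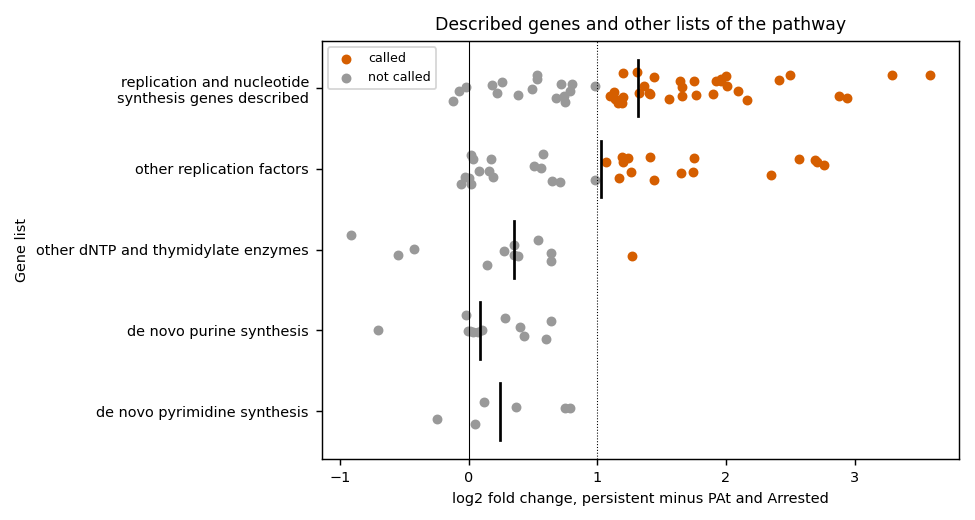
Log2 fold changes between persistent and PAt and Arrested cells for the 50 genes and for 4 other lists of the pathway, each point a gene, orange where called, with a black line at each list's median. The medians are 1.32 for the 50 genes, 1.03 for other replication factors, 0.35 for other deoxynucleotide enzymes, 0.08 for purine and 0.24 for pyrimidine synthesis.

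Some genes share reads or positions with others. In GENCODE vM21, 15 of the 50 genes have exons that overlap a gene on the opposite strand, 6 of them by more than 500 bases, among them Chaf1a (4648 bases, Ubxn6), Gins2 (2758 bases, Gse1) and Fen1 (2039 bases, Gm10143 and Tmem258). The kit kept strand, and the strand setting of the counting was not given in the sources used here. Transcripts of other genes matched 13 of the 50 at 95% identity or more over 200 bases or more, some of them the overlapping genes just named and others processed pseudogenes, as for Mcm7 (Gm5487, 2157 bases), Rfc5 (Gm12870, 1020 bases), Pcna (Pcna-ps2, 781 bases), Rrm2 (Gm48455, 419 bases) and 2810417H13Rik (Gm15428, 315 bases), and how the authors' counting treated such reads is not known.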

How the data were processed

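RNA-seq libraries of 18 samples (6 populations, 3 replicates each) were used. Per the labels and the methods, RNA of sorted cells (100K to 250K) was made into stranded mRNA libraries, and the authors aligned 100-bp paired reads to mm10 with TopHat2 2.0.9 and used DESeq2. Submitters' notes also name CASAVA 1.8.2 and FastQC 0.11.2. The values the authors deposited are log2 of normalised counts and look like DESeq2's rlog, a transform that shrinks differences of weakly expressed genes. The counter was not given in the sources used here.

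Values were used as deposited, without a pseudocount, since the file holds no counts. Genes under a mean of 3 (2212) were dropped, which left 13190. One model of the 6 populations (12 residual degrees of freedom, variance trend) was fitted with limma 3.58.1 in R 4.3.3 and was checked on simulated data. All adjusted p-values are from limma with Benjamini-Hochberg adjustment over these genes. p-values measure the spread between pools. Levels per kilobase used the longest coding transcript of GENCODE vM21, and near copies were found with minimap2 2.31. Promoters came from RefSeq, GRCm38.p6.

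The 50 genes, pathway lists, markers and tests were chosen with earlier results of these data known. Named in full were the extremes of each role, Mcm2 to Mcm7, Cdt1 and Gmnn, Rrm1 and Rrm2, Pcna, genes called in the minority direction or in the difference of differences, and the 3 highest and 3 lowest of each pathway list. Of the pathway lists, 1 gene is not reported here and was left out of their counts. Other genes were named to account for each role, after their values were seen. Since all 6 populations are described as coming from each mouse, a replicate number was taken to mark 1 pool, which is not stated outright. Deviations of 45 same-numbered pairs had a median correlation of 0.166 (-0.206 to 0.436), and of 90 other pairs -0.0642. Alternatives changed the filter, threshold, scaling, variance trend, samples in the fit and replicate block, and left out each library in turn.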

Additional observations from a re-analysis of the deposited data

Results flagged for a closer look

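For 14 of the 50 genes, the difference between persistent and PAt and Arrested cells was called different from that between Teff and Tnaive cells. The call was by the limma test of this difference of log2 fold changes, at an adjusted p under 0.05 and a size over 1. The value was positive, that is with a higher signed log2 fold change among Timer+ cells, for Pole2 (2.73, from 1.13 in Timer+ and -1.6 in Timer- cells), Chaf1b (1.47), Prim1 (1.38), Mcm3 (1.36), Cdt1 (1.33), Mcm2 (1.24), Rfc4 (1.19), Prim2 (1.14), Mcm4 (1.13), Mcm7 (1.13), Orc1 (1.11), Pcna (1.09) and Dut (1.05), and negative for Tk1 (-1.05). Among all tested genes 1.52% were called positive and 6.9% negative. By the adjusted p alone, 42 of the 50 were positive and 1 was negative, beside 23.2% and 25.5% of all tested genes. After quantile normalisation 20 of the 50 were called positive and 0 negative, with Tk1 at -0.76. Teff libraries carried more dendritic cell, macrophage, B-cell and CD8 marker signal than Tnaive libraries. Of the NK-cell markers, Klrb1c and Ncr1 were higher in Teff and Eomes was lower. Persistent libraries carried less B-cell and CD8 signal than PAt and Arrested libraries. The part of such cells in these values was not tested.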

How the results depend on the processing

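With the replicate block, the pairing by number, counts of genes called were the same as without it in each comparison (33 higher in persistent than in PAt and Arrested cells, 14 in Teff than in Tnaive, 33 and 34 in persistent than in Teff and in Tnaive, 13 for the difference of differences), and no call of a single gene changed. No filter, a minimum mean of 5, no variance trend and fitting only the populations compared moved no count by over 1.5 times. For persistent to Tnaive, the median of all tested genes went from 0.00985 to -0.134 when libraries were centred on their medians and to -0.103 with quantile normalisation, and for Teff to Tnaive it went from 0.00472 to -0.0994 with quantile normalisation. Calls against Tnaive were lost in persistent cells for Mcm2 (0.95), Prim2 (0.97), Rpa2 (1.0) and Chaf1b (0.93) with centring and for Orc6 (0.99), Prim2 (0.93) and Chaf1b (0.94) with quantile normalisation, and against Teff for Cdt1 (0.99) with centring. The medians of the 50 genes became 1.25 (persistent to PAt and Arrested), 0.28 (Teff to Tnaive), 1.12 (persistent to Teff), 1.32 (persistent to Tnaive) and 0.14 (PAt and Arrested to Tnaive) with centring, and 0.19 (Teff to Tnaive), 1.28 (persistent to Tnaive) and 0.13 (PAt and Arrested to Tnaive) with quantile normalisation, which also gave 20 positive and 0 negative calls and a median of 0.85 for the difference of differences. With no fold threshold, 29 genes were higher and 5 lower in Teff than in Tnaive, 1 lower in persistent than in Teff, 4 lower in persistent than in Tnaive, 5 higher and 25 lower in PAt and Arrested than in Teff, 27 higher and 8 lower than in Tnaive, 6 higher in Pers2 than in Pers1, 1 higher in Arrested than in PAt, and 42 positive for the difference of differences. The shares of all tested genes with no fold threshold are those given above for the adjusted p alone. With a fold threshold of 0.5, 2 were lower in Teff than in Tnaive, 10 lower in PAt and Arrested than in Teff, 18 higher than in Tnaive, and 33 positive. Among all 13190 tested genes, these calls numbered 1350, 1385, 1741 and 1220 in the same order. The 7-letter E2F motif raised the share of promoters from 40.5% to 66.7%. Leaving out each library in turn gave 33 to 34 genes higher in persistent than in PAt and Arrested cells (medians 1.27 to 1.35), 13 to 15 in Teff than in Tnaive (0.33 to 0.42), 33 to 34 in persistent than in Teff (1.16 to 1.21), 34 in persistent than in Tnaive (1.41 to 1.48), 2 to 3 lower in PAt and Arrested than in Teff (-0.19 to -0.14), 7 to 9 higher than in Tnaive (0.2 to 0.23), 0 in Pers2 and Pers1 (0.08 to 0.17) and in Arrested and PAt (-0.12 to -0.06), and 13 to 15 positive and 0 to 1 negative for the difference of differences (0.7 to 0.74). Orc5, at -0.02 between persistent and PAt and Arrested cells and not called, changed sign without Pers1 replicate 1 (0.02), PAt replicate 2 (0.01) or Arrested replicate 3 (0.04), with a range of -0.05 to 0.04. The cause of these changes was not tested, beyond what a looser threshold gives by construction. Depth is unknown, so counting error could not be given.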
